A study of Mus musculus with 11 samples.

Results

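The cytosolic ribosomal protein genes are the protein-coding genes whose symbol is Rpl or Rps followed by a digit, together with Rplp0, Rplp1, Rplp2 and Rpsa, without the Rps6k kinases and without symbols that hold -ps. In the GRCm38 annotation 86 of the 55487 genes in the count files met this rule. Of these, 51 encode proteins of the large (60S) subunit, 3 P-stalk genes included, and 33 encode proteins of the small (40S) subunit. The remaining 2, Rps19bp1 and Rpl7l1, fit the symbol but are not proteins of the mature ribosome. The genes were compared between hearts of Pde2A-/- embryos (KO, n = 5) and of Pde2A+/+ embryos (WT, n = 6), which lack or carry the phosphodiesterase Pde2A, an enzyme that degrades cAMP and cGMP. Both groups came from crosses of heterozygotes of the B6; 129P2-Pde2A tm1Dgen line, were untreated and were taken at E14.5, and each library was made from embryonic heart RNA. The paper used embryos of both sexes in its experiments, and the labels do not give the sex of any heart. The line has a mixed B6 and 129P2 background, and the labels give neither litter nor library batch. The sources used here give as many hearts for the sequencing as there are libraries, so each library is called a heart. They do not say how the hearts are related. The p-values measure the spread between these libraries, which may be in part technical.

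A ribosome is built from ribosomal RNA and a set of proteins that are needed in equal numbers, and their genes are spread over nearly all chromosomes. Most of these mRNAs begin with a C followed by a run of pyrimidines, the terminal oligopyrimidine (TOP) start, through which mTOR signaling and Larp1 control their translation together. Heart growth in the embryo depends on this supply, and loss of a single copy of certain ribosomal protein genes causes Diamond-Blackfan anaemia, which can come with heart malformations.

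The start regions of the 4 genes past the test threshold described below, and of Rps27, the partner of Rps27l, are shown because the genes differ at the transcription start. Each sequence runs 5′ to 3′ from 50 bases before to 20 bases from the annotated start on (RefSeq, GRCm38.p6), and capitals mark each C followed by at least 4 pyrimidines on the gene's strand that begins within 10 bases of that start.
Rps6 (chr4:86857348-86857417, minus strand): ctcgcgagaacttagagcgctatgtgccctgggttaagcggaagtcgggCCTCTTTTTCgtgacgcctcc
Rps27 (chr3:90213629-90213698, minus strand): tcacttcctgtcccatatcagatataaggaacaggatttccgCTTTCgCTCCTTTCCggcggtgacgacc
Rps27l (chr9:66946036-66946105, plus strand): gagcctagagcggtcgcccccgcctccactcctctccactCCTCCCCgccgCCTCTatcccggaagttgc
Rps19bp1 (chr15:80264287-80264356, minus strand): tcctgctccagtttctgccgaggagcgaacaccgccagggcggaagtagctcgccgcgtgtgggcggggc
Rpl7l1 (chr17:46782637-46782706, minus strand): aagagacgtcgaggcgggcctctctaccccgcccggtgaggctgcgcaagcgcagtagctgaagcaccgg
Rps6 had a single pyrimidine run, of 10 bases, which began 1 base before the annotated start and covered it. Rps27 had a run of 9 bases that began 2 bases before the start and covered it, and another of 5 bases that began 8 bases before it. In Rps27l neither run covered the start: 7 bases, the end of a longer run, began 10 bases before it and 5 bases began 1 base after it. Rps19bp1 and Rpl7l1, the 2 non-ribosomal genes, had no such run in the window searched.

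Sequencing depth was similar in all hearts, with 35865537 to 42835382 reads counted on genes per heart, and counted reads were not called different between genotypes (adjusted p = 0.870, exact two-sided permutation test). Pde2a itself had 0 to 2 counts in every heart of either genotype, so its counts could not check the labels. Whether reads of Pde2a went uncounted was not tested. WT replicate 7 stood apart in a list of 7 thymus genes, which summed to 88.3 CPM there (counts scaled to the library total after TMM normalization, the unit of all levels here) and to 2.09 to 3.18 in the other 10 hearts. Liver genes were raised in some hearts of both genotypes, up to 105.9 CPM in WT replicate E. Reads mapped to several places, which the files leave uncounted, made up 11.2% ± 0.303 (SD, n = 5) of reads in KO and 12.3% ± 0.640 (n = 6) in WT hearts (adjusted p = 0.0346, exact two-sided permutation test over 4 library measures, 462 splits). Mitochondrially encoded genes took 2.49% ± 0.552 of counted reads in KO and 3.25% ± 0.176 in WT hearts (adjusted p = 0.0433, same test). This matters here because ribosomal protein genes have many pseudogene copies with which their reads can be shared, and its part in the values below was not tested.

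As a set, the ribosomal protein mRNAs were nearly level between genotypes. Among the 85 genes with at least 10 counts over all hearts, the median log2 fold change of KO over WT was 0.04, or 2.94%, against -0.02 over all 24177 genes tested. In the quasi-likelihood F test of edgeR, adjusted after Benjamini and Hochberg over all genes with a threshold of 0.05, 1 gene was higher in KO hearts (Rps6) and 3 were lower (Rps27l, Rpl7l1 and Rps19bp1), which is 4.71% of the set. Over all genes tested, 14.6% were called, 8.93% higher and 5.67% lower, and among the 4685 genes that averaged 50 CPM or more, a level that 78 of the 85 reached, 25.8% were called. No ribosomal protein gene passed a 2-fold limit as well, by edgeR or DESeq2, against 2.59% of all genes tested. At an unadjusted p under 0.05 the set held 14 higher and 3 lower genes, 17 of 85, beside 30.5% of all genes tested (3761 higher and 3607 lower of 24177).

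The estimates were tight. For 76 of the 85 genes the whole 95% interval of the fold change lay within 1.25-fold in either direction, against 26.3% of all genes tested and 65% of those at 50 CPM or more. The median standard error was 0.05 on the log2 scale for the set and 0.17 over all genes tested. The 9 genes whose interval reached past 1.25-fold were Rpl24, Rpl36al, Rpl39l, Rpl3l, Rplp0, Rps27rt and Rps27l, and the non-ribosomal Rpl7l1 and Rps19bp1. Of the large subunit genes 36 of 50 tested had a positive fold change, and of the small subunit genes 27 of 33, with medians of 0.04 for each. Over all genes tested 11353 of 24177 were positive, as were 2285 of the 4685 genes at 50 CPM or more. The size of the call depended on the test and on single hearts: DESeq2 called 11 genes higher and 3 lower, beside 16.4% and 13.8% of all genes with an adjusted p, and edgeR without KO replicate A called 10 higher and 3 lower, beside 12.1% and 9.07% of all genes tested without that heart, while without KO replicate D the 4 genes called here had adjusted p of 0.0563 to 0.0913.

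**Figure D1:**
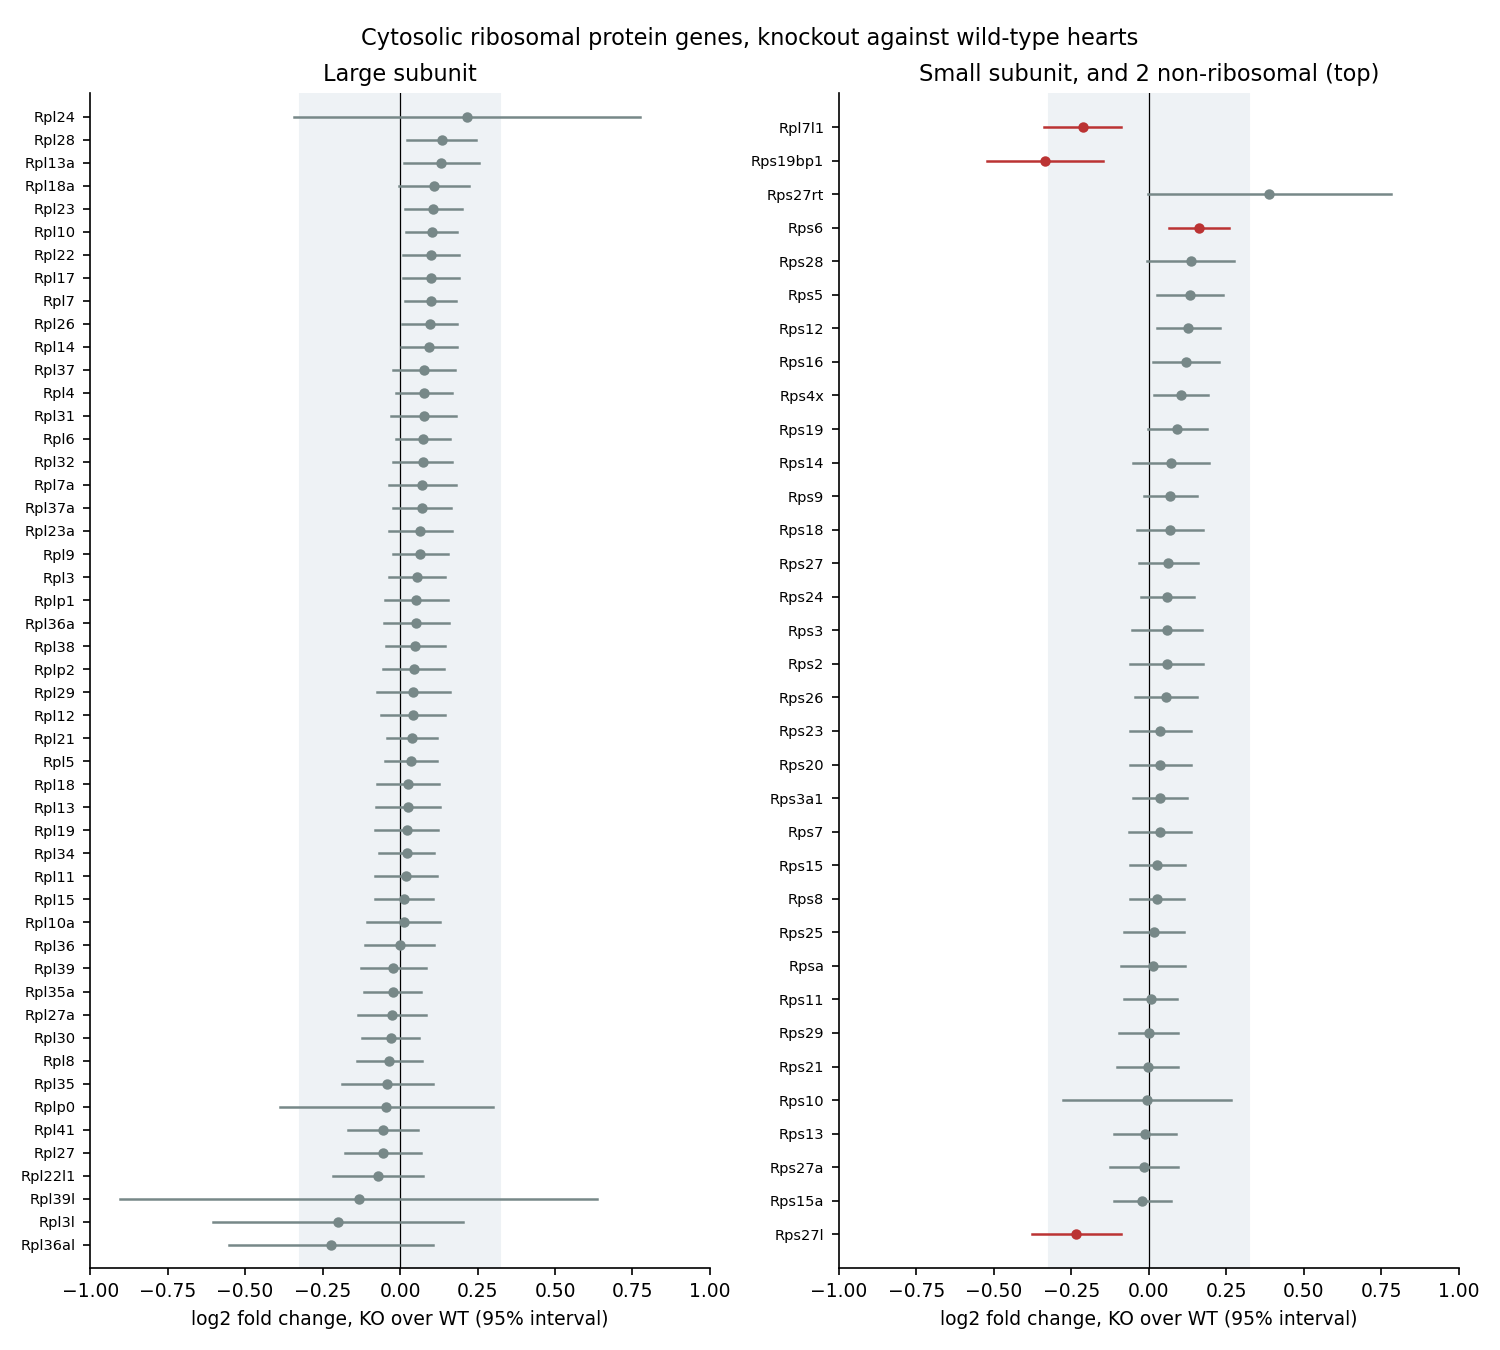
Log2 fold change of KO over WT hearts (x axis) with its 95% interval for 84 of the genes tested (y axis), large subunit on the left and small subunit on the right, the 2 non-ribosomal genes at the top right. Red marks the 4 genes past an adjusted p of 0.05 and the shaded band is 1.25-fold in either direction, which holds the whole interval of 75 genes shown.

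Summed over all 86 genes, ribosomal protein mRNAs took 2.46%, 2.57%, 2.73%, 2.56% and 2.62% of counted reads in KO replicates A, B, 14, D and 15. In WT hearts the share was 2.39% at the lowest, 2.51% at the median and 2.65% at the highest. The 2 genotypes overlapped over most of their range, with KO replicate A inside the lower part of the WT range and KO replicate 14 above it. Means were 2.59% ± 0.097 (SD, n = 5) in KO and 2.52% ± 0.094 (n = 6) in WT hearts, a difference of 0.070 percentage points, which is less than either SD. Of the reads left without globin and mitochondrially encoded genes, the share was 2.67% ± 0.092 in KO and 2.63% ± 0.100 in WT hearts. That difference was smaller, at 0.045 percentage points. Both subunits moved together: large subunit genes took 1.45% ± 0.057 in KO and 1.41% ± 0.052 in WT, and small subunit genes 1.13% ± 0.042 and 1.10% ± 0.043. The ratio of large to small subunit counts stayed between 1.25 and 1.30 in all 11 hearts, with means of 1.28 in each genotype.

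The genes also rose and fell together from heart to heart within a genotype. Of the 77 ribosomal genes counted on most of their coding sequence at 1 CPM or more, 16, 66, 75, 52 and 62 lay above the WT mean in KO replicates A, B, 14, D and 15. In the WT hearts that number was 7 at the lowest and 70 at the highest. The hearts with the most genes above the mean were KO replicate 14 and WT replicate 7, and those with the fewest were WT replicate H, WT replicate E and KO replicate A. These are counts on values scaled to the same library factors, so hearts of a single genotype differed among themselves by more than the genotype means did.

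**Figure D2:**
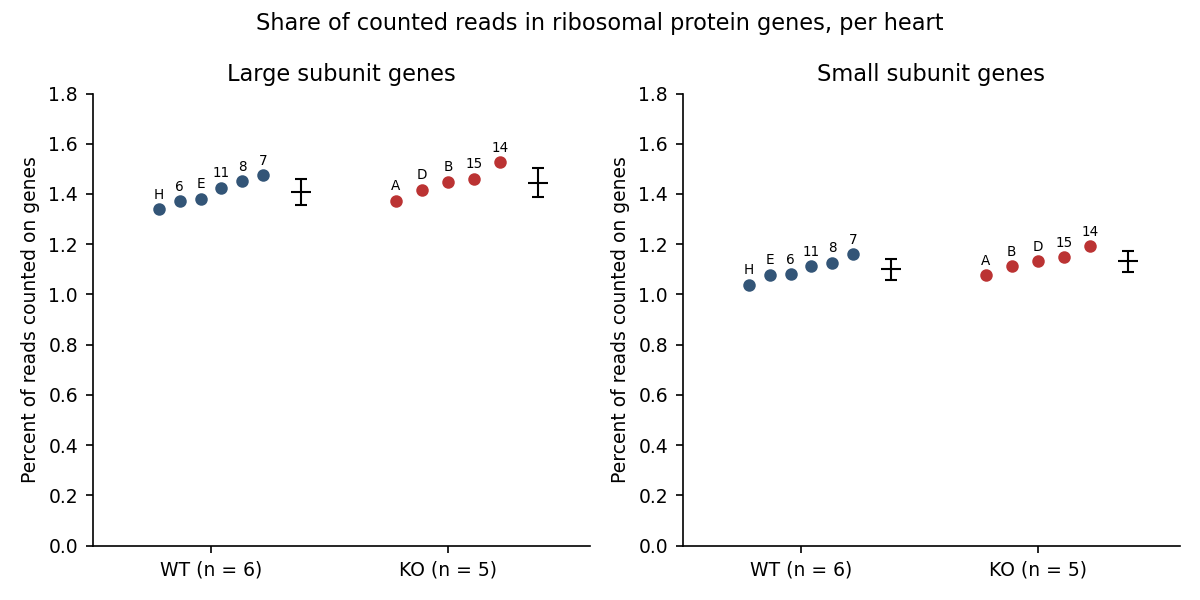
Percent of reads counted on genes (y axis, from 0) that fell on large subunit (left) and small subunit (right) ribosomal protein genes in each heart, labelled by replicate, with the mean and SD of each genotype beside the points. WT and KO hearts overlap in both panels, and KO replicate 14 is the highest in each.

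Rps6 encodes the small subunit protein that S6 kinase phosphorylates downstream of mTOR. Rps6 was at 184, 201, 213, 197 and 204 CPM in KO replicates A, B, 14, D and 15. The WT hearts had 170.0 at the lowest, 179 at the median and 185 at the highest. The KO hearts were above all WT hearts except that KO replicate A lay just under the highest WT value. The log2 fold change was 0.16 (SE 0.045, adjusted p = 0.0301, edgeR), or 11.9% higher, and the adjusted p ranged from 0.00275 to 0.0822 over the alternatives, passing the threshold in 14 of 20 of them.

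Rps27l is a close copy of Rps27, a small subunit protein, and is known as a target of p53. It was at 77.1, 76.6, 72.1, 66.2 and 61.7 CPM in KO replicates A, B, 14, D and 15. In WT hearts it was at 76.9 at the lowest, 83.8 at the median and 91.4 at the highest. Only KO replicate A reached into the WT range, at its low end. The log2 fold change was -0.23 (SE 0.067, adjusted p = 0.0345, edgeR), with the threshold passed in 13 of 20 alternatives. Its partner Rps27 was at 242 to 268 CPM in KO and 229.7 to 255 in WT hearts, with a log2 fold change of 0.06 (SE 0.044, adjusted p = 0.376). Per kilobase of coding sequence Rps27l reached 20.5% to 28.0% of Rps27 in KO hearts and 26.9% to 34.3% in WT hearts, where KO replicates A and B lay inside the WT range. The third copy, Rps27rt, was at 3.40 to 5.23 CPM in KO and 2.40 to 4.38 CPM in WT hearts, and its log2 fold change of 0.39 (SE 0.18) did not pass (adjusted p = 0.166).

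Rpl7l1, which resembles Rpl7 and is known from early steps of large subunit assembly, was at 101, 98.5, 96.2, 88.1 and 81.0 CPM in the KO hearts in the same order. The WT hearts had 103 at the lowest, 108 at the median and 114 at the highest, so the genotypes did not overlap. The log2 fold change was -0.21 (SE 0.058, adjusted p = 0.0283), while that of Rpl7 was 0.10 (SE 0.038, adjusted p = 0.0968). Rps19bp1 encodes a protein that binds Rps19 and is also known as a regulator of the deacetylase Sirt1. It was at 14.2, 14.6, 13.6, 13.1 and 10.3 CPM in KO hearts and at 15.4 at the lowest, 16.7 at the median and 18.4 at the highest in WT hearts. These genotypes did not overlap either, with KO replicate 15 the lowest heart. The log2 fold change was -0.33 (SE 0.086, adjusted p = 0.0228), and the threshold was passed in 15 of 20 alternatives for Rpl7l1 and in 19 of 20 for Rps19bp1, which lost it without KO replicate D (adjusted p = 0.0563).

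**Figure D3:**
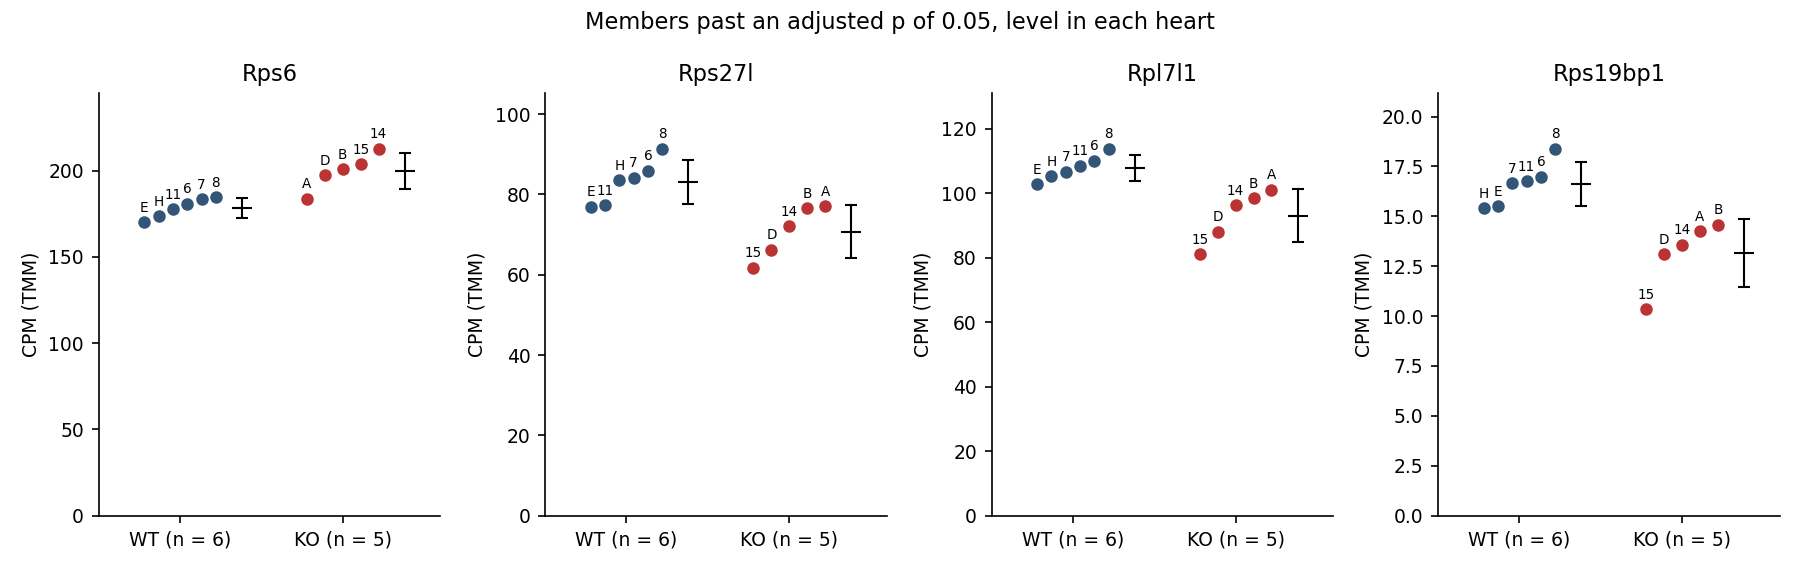
Level in CPM after TMM scaling (y axis, from 0) of Rps6, Rps27l, Rpl7l1 and Rps19bp1 in each heart, labelled by replicate, with the mean and SD of each genotype. Rps6 is higher in KO hearts and the other 3 are lower, with no overlap for Rpl7l1 and Rps19bp1.

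Genes whose values did not overlap between genotypes numbered 4 of 85, or 4.71%, against 8.49% of all genes tested and 14% of those at 50 CPM or more. Besides Rpl7l1 and Rps19bp1 these were the large subunit genes Rpl7 and Rpl10, both chosen for mention because of their values. Rpl7 was at 655, 670.3, 678, 653 and 687 CPM in KO hearts and at 595 to 641 CPM in WT hearts. Rpl10, an X-linked gene of the large subunit whose protein helps complete the peptidyl transferase centre, was at 243, 243, 247, 242 and 259 CPM in KO hearts and at 222 to 238 CPM in WT hearts. All KO hearts lay above all WT hearts for both genes, as for 5.38% of all genes tested, and below them for the other 2, as for 3.11%. Neither Rpl7 nor Rpl10 passed the threshold by edgeR (adjusted p = 0.0968 and 0.0921). DESeq2 called both higher (adjusted p = 0.00795 and 0.0142), as did edgeR with the naming style of the replicates as a term (adjusted p = 0.0447 and 0.0486). Without KO replicate A, whose values were low for most of the set, 24 of 85 genes had no overlap, beside 14.7% of all genes tested without that heart.

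The P-stalk proteins Rplp0, Rplp1 and Rplp2 recruit translation factors to the large subunit, and Rpsa, the laminin receptor precursor, sits on the small subunit. Rplp1 (715 to 832 CPM over all hearts), Rplp2 (249 to 296) and Rpsa (641 to 722) overlapped between genotypes, with log2 fold changes of 0.05, 0.04 and 0.01 and adjusted p of 0.492, 0.566 and 0.892. For Rplp0 the hearts fell into separate levels that crossed the genotypes. It was at 509 and 531 CPM in KO replicates A and D and at 516 CPM in WT replicate 6. In the remaining KO hearts it was at 809, 851 and 889 CPM, and in the remaining WT hearts at 756 to 812 CPM. Low and high hearts were thus present in both genotypes, and the log2 fold change was -0.04 with a wide interval of -0.39 to 0.30 (adjusted p = 0.888).

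The same 3 hearts stood apart in a pair of other genes, which were chosen after their values were seen. The pseudogene Rplp0-ps1 on chromosome 3 had 82, 111 and 86 counts in KO replicates A and D and WT replicate 6, and 46 to 59 counts in the other 8 hearts. Gcn1l1, which begins on chromosome 5 at position 115565254, next to the end of Rplp0 at 115563727 (GRCm38, same strand), was at 191, 186 and 192 CPM in those hearts and at 152 to 171 CPM in the others. Rplp0 was low where both of these were high. Cox6a1 and Pxn, also nearby on chromosome 5, did not set these 3 hearts apart. In KO replicates A and D and WT replicate 6, Cox6a1 was at 198, 187 and 240 CPM and Pxn at 85.0, 102 and 83.2 CPM. In the other hearts Cox6a1 was at 192 to 244 CPM and Pxn at 81.4 to 108 CPM. Rplp0 was the gene of the set with the largest within-genotype SD among those above 50 CPM, at 0.32 on the log2 scale against a median of 0.07 over the set, and leaving Rplp0 out moved the difference in summed share only from 0.070 to 0.073 percentage points.

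**Figure D4:**
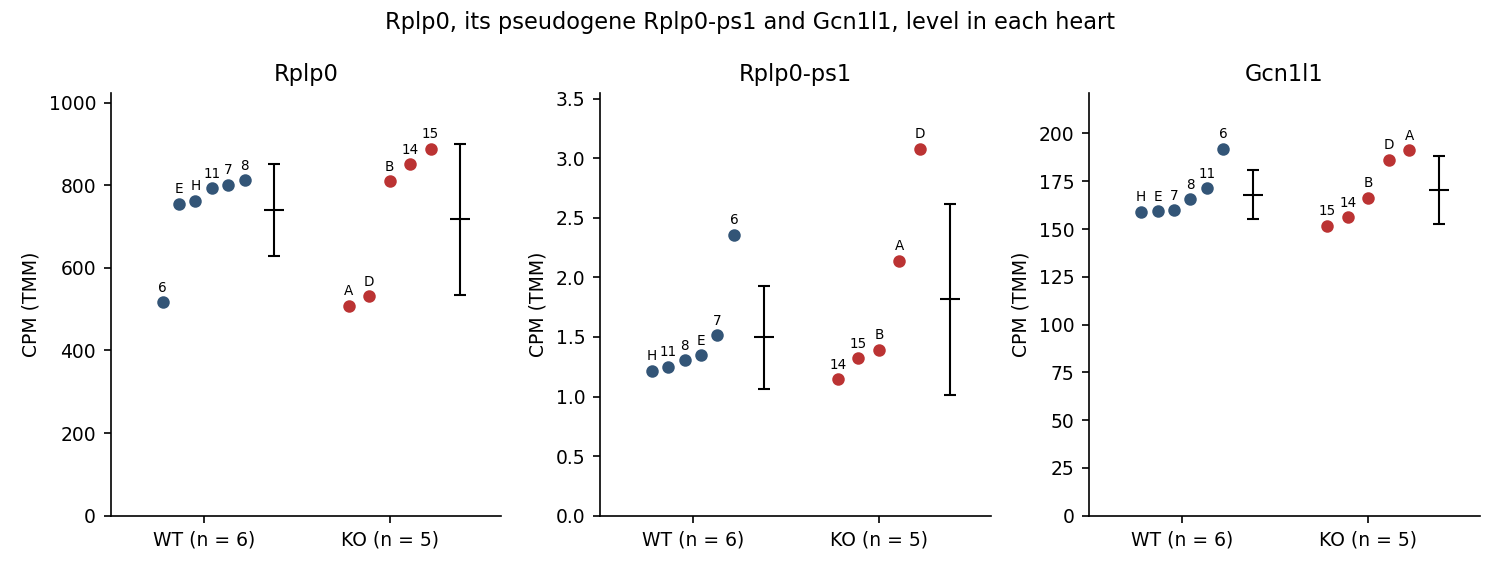
Level in CPM after TMM scaling (y axes, from 0) of Rplp0, of the pseudogene Rplp0-ps1 and of the neighbouring gene Gcn1l1 in each heart, labelled by replicate, with the mean and SD of each genotype. WT replicate 6 and KO replicates A and D are the 3 lowest hearts for Rplp0 and the 3 highest for the other 2 genes.

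Of 10 genes that are mutated in Diamond-Blackfan anaemia (Rps7, Rps10, Rps19, Rps24, Rps26, Rpl5, Rpl11, Rpl15, Rpl26 and Rpl35a), none passed the threshold by edgeR. DESeq2 called Rpl26 higher (adjusted p = 0.0474), as did edgeR without KO replicate A (adjusted p = 0.0430), and edgeR with the naming style of the replicates as a term called Rps19 higher (adjusted p = 0.0482). Over all genes tested 11353 of 24177 were positive, 30.5% had an unadjusted p under 0.05 and 26.3% an interval within 1.25-fold. Among the 10 genes, log2 fold changes ran from -0.02 to 0.10 with a median of 0.04. Of these 10, 8 were positive, 1 had an unadjusted p under 0.05, and for all 10 the 95% interval lay within 1.25-fold. The largest change was in Rpl26, at 215, 229, 235, 229 and 242 CPM in KO hearts and 207 to 221 CPM in WT hearts, with KO replicate A inside the WT range (log2 fold change 0.10, SE 0.041, adjusted p = 0.133). Rps19, the gene mutated most often in that disease, was at 153 to 171 CPM in KO and 142 to 157 CPM in WT hearts (log2 fold change 0.09, adjusted p = 0.177). The lowest estimate belonged to Rpl35a, at 91.7 to 104 CPM in KO and 94.1 to 101 CPM in WT hearts (log2 fold change -0.02, adjusted p = 0.769).

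Several members are paralogous copies used in particular tissues. The copies cannot be ranked by use, because most of the coding sequence of Rpl36al, a copy of Rpl36a, is also annotated to another gene. Rpl22l1, a copy of Rpl22, was at 59.6 to 76.7 CPM in KO and 65.4 to 75.2 CPM in WT hearts (log2 fold change -0.07, SE 0.067, adjusted p = 0.528). Rpl22 was at 329 to 368 CPM in KO and 322 to 329 CPM in WT hearts (log2 fold change 0.10, SE 0.041, adjusted p = 0.119 by edgeR), and DESeq2 called it higher (adjusted p = 0.0448). Per kilobase of coding sequence Rpl22l1 reached 18.9% to 22.1% of Rpl22 in KO and 21.4% to 24.5% in WT hearts, ranges that overlap. Rpl3l, the striated muscle form of Rpl3 that comes up after birth, was at 0.543 to 0.783 CPM in KO and 0.574 to 0.920 CPM in WT hearts, at most 0.182% of Rpl3 per kilobase. Rpl39l, a form known from the testis, was at 0.0555 to 0.189 CPM and rested on 53 counts over all hearts. Rpl10l, the testis form of Rpl10, had 0 counts in every heart, which allows up to 3 counts in each, and was not tested.

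Levels differed between the genes far more than between genotypes. Over the 74 ribosomal genes other than paralogous forms and genes that share coding sequence, the mean level per kilobase of coding sequence had a median of 657 CPM and quartiles of 437 and 856. The highest were Rpl41, which encodes a very short peptide, at 3633 CPM per kilobase, Rplp1 at 2256 and Rps14 at 1943, and the lowest was Rpl29 at 161. Reads also fall on untranslated parts, which weigh more in short genes such as Rpl41, whose coding sequence has 75 bases. Reads mapped to several places are left uncounted, which lowers genes with pseudogene copies, and its part in this order was not tested. None of the highest 3 differed between genotypes beyond its spread: the log2 fold changes were -0.05 for Rpl41, 0.05 for Rplp1 and 0.07 for Rps14, with adjusted p of 0.536, 0.492 and 0.443. The gene with the smallest within-genotype SD was Rpl21, at 373 to 400.0 CPM in KO and 369 to 391.7 CPM in WT hearts. Rps3 was the only member within 5 Mb of Pde2a on chromosome 7, 1.94 Mb away, and its log2 fold change was 0.06 (SE 0.053, adjusted p = 0.493).

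For 4 members the listed level is incomplete, because at least 80% of their coding sequence is also annotated to another gene on the same strand. This share was 92.5% for Rpl13a, 95.3% for Rpl36al, 83.4% for Rpl24 and 80.1% for Rps10. Reads that fall on such stretches are counted on neither gene. Rpl24 was accordingly listed at 0.138 to 0.354 CPM and Rps10 at 2.31 to 3.37 CPM, though both are core proteins of every ribosome. Their genotype comparisons rest on the reads that remained, 95 counts over all hearts for Rpl24 and 1256 for Rps10. Among 77 ribosomal genes without these 4 and at 1 CPM or more, 1 was higher (Rps6), 1 was lower (Rps27l), and the median log2 fold change was 0.04.

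Pseudogenes of ribosomal proteins took few of the counted reads. The 289 annotated -ps genes summed to 161 to 179.7 CPM in KO and 154 to 171 CPM in WT hearts, which is 0.609% to 0.702% of the members' counts. Of the 150 tested, Rpl14-ps1 was higher (log2 fold change 0.19, SE 0.057, adjusted p = 0.0457) and Rpl35a-ps5 lower (log2 fold change -1.37, SE 0.39, adjusted p = 0.0345), the latter at 0.056 CPM in KO and 0.152 CPM in WT hearts on average. Reads shared in full between a gene and a pseudogene are not counted on either, and how many were lost in this way was not tested.

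Fau and Rack1 also encode cytosolic ribosomal proteins, though the symbol rule does not match them. Fau makes a fusion of a ubiquitin-like protein with a ribosomal protein, the member Rps27a a fusion with ubiquitin, and Rack1 is a signaling scaffold on the small subunit. Neither Fau nor Rack1 passed the threshold by edgeR, 1 was higher at an unadjusted p under 0.05, and DESeq2 called 1 higher. Fau was at 84.5, 90.3, 101, 101 and 101 CPM in KO hearts and 84.1 to 89.9 CPM in WT hearts (log2 fold change 0.14, SE 0.053, adjusted p = 0.0839). Rack1 was at 885 to 1024 CPM in KO and 852 to 949.5 CPM in WT hearts (log2 fold change 0.08, adjusted p = 0.324), and Rps27a was at 288 to 338 CPM in KO and 298 to 337 CPM in WT hearts (log2 fold change -0.02, adjusted p = 0.872).

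Features near the annotated starts, which the rule did not use, differed in frequency between the members and all genes with start windows. RefSeq start windows were found for 66 of the 86 genes, 78 windows in all. A C followed by at least 4 pyrimidines on the gene's strand lay within 10 bases of the start in 53.8% of these windows, against 30.7% of all 32851 windows in the table. Directly at the annotated start it was found in 17.9%, against 2.51% of all windows. In the 300 bases from 250 before to 50 after the start, searched on both strands, the ETS-type letters CCGGAAG were in 34.6% of member windows and 8.86% of all, and GATGGCGG, part of the known YY1 motif, in 6.41% and 1.70%. TATAAA was in 8.97% of member windows and 13.6% of all. None of these strings contains another, and genes with several annotated starts contribute several overlapping windows.

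The genes that build the ribosome and set its use were described from lists, beside the members. Other TOP mRNAs, mainly translation factors, had a median of 0.04 as a list, and 4 of 20 rose and 1 fell, a share of 25% that is near the 25.8% called among all genes at 50 CPM or more. Eef2, which moves the ribosome along the mRNA, rose from 2569 to 3010 CPM on average (log2 fold change 0.23, SE 0.047, adjusted p = 0.00765), and the initiation factors Eif4b and Eif4a2 rose by 0.39 and 0.51 on the log2 scale (adjusted p = 0.0134 and 0.0201). Eef1a2, the form of the elongation factor used in muscle and nerve, fell from 327 to 231 CPM (log2 fold change -0.50, SE 0.12, adjusted p = 0.0169).

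Ribosome assembly factors fell in part. Of 30 tested, 9 were lower and none higher by edgeR, or 30%, with a median of -0.21, and DESeq2 called 12 lower and none higher. By edgeR, 5.67% of all genes tested were lower, as were 1283 of 16541 protein-coding genes and 519 of the 4685 genes at 50 CPM or more. At an unadjusted p under 0.05, 21 were lower and 1 higher, beside 3607 lower and 3761 higher of all 24177 genes tested. By DESeq2, 13.8% of all genes with an adjusted p were lower. Among the 9 were Bysl (log2 fold change -0.47, adjusted p = 0.0344) and Rrs1 (-0.35, adjusted p = 0.0248), which act in small and large subunit assembly. This count fell to 0 without KO replicate 14, 15 or D or WT replicate 6 or 8, to 2 without WT replicate 7 and to 6 without WT replicate 11. Of 15 RNA polymerase I genes 13.3% were called and of 20 genes of the mTOR branch 20%, both near the shares called among all genes tested (14.6%) and among those at 50 CPM or more (25.8%). The 2 RNA polymerase I genes fell, the subunit gene Polr1e from 41.7 to 24.3 CPM (log2 fold change -0.78, SE 0.13, adjusted p = 0.00233) and Ubtf, which activates ribosomal RNA genes, by 0.20 on the log2 scale (adjusted p = 0.0301). The mTOR list also holds the transcription factor genes Myc, Mycn and Max. In this list Ddit4, an inhibitor of mTOR, and Myc rose by 0.69 and 0.39 on the log2 scale (adjusted p = 0.0191 and 0.0430). Rps6kb1, the S6 kinase that acts on Rps6, and Eif4e fell (log2 fold changes -0.29 and -0.23, adjusted p = 0.0385 and 0.0349). Of 13 other initiation, elongation and recycling factors none passed by edgeR, 5 were lower at an unadjusted p under 0.05, 2 were lower by DESeq2, and the median was -0.09.

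Mitochondrial ribosomal proteins, which are also encoded in the nucleus but build the ribosome inside mitochondria, differed in their counts. Of 77 tested, 32 were lower and none higher by edgeR (41.6% called), with a median log2 fold change of -0.18. Lower genes made up 5.67% of all genes tested, 1283 of 16541 protein-coding genes and 519 of 4685 genes at 50 CPM or more. At an unadjusted p under 0.05, 51 were lower and none higher, beside 3607 lower and 3761 higher of all 24177 genes tested. DESeq2 called 47 lower and none higher, beside 13.8% lower of all genes with an adjusted p. In 19 genes all KO hearts were below all WT hearts. This held for 3.11% of all genes tested, 684 of the protein-coding genes and 251 of the genes at 50 CPM or more. Mrpl12 was at 124, 126, 109, 94.1 and 88.5 CPM in KO hearts and at 129 to 163 CPM in WT hearts (log2 fold change -0.45, SE 0.096, adjusted p = 0.0101). Mrpl48, 0.876 Mb from Pde2a on chromosome 7, was at 21.6 to 25.9 CPM in KO and 36.9 to 40.2 CPM in WT hearts (log2 fold change -0.70, SE 0.056, adjusted p = 7.61e-06). The number of lower genes ran from 13 without KO replicate D to 44 without KO replicate B. The difference between the cytosolic and mitochondrial sets was not tested.

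**Figure D5:**
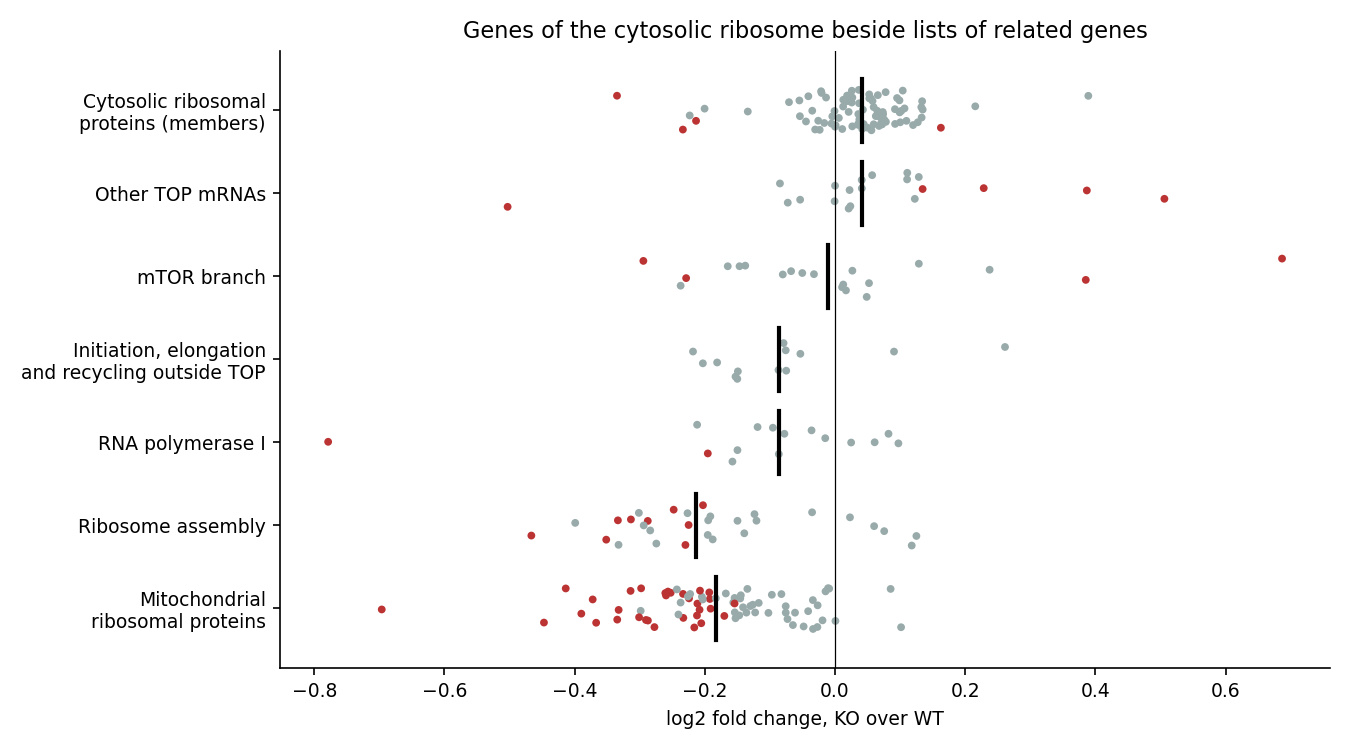
Log2 fold change of KO over WT hearts (x axis) for each gene tested in the cytosolic ribosomal protein set and in 6 lists of related genes (y axis), with points past an adjusted p of 0.05 in red and the list median as a black bar. The cytosolic set lies close to 0 with a median of 0.04, while ribosome assembly and mitochondrial ribosomal protein genes have medians of -0.21 and -0.18.

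Lists of cell type markers were set beside the 14.6% called among all genes tested and the 25.8% among those at 50 CPM or more. The share called was 91.7% for macrophage, 46.7% for erythroid, and 37.5% each for endothelial and fibroblast genes. For cardiomyocyte genes it was 28.6%, near the share at 50 CPM or more. In bulk tissue, fewer cells of a type and less RNA per cell cannot be told apart. Of 12 macrophage markers 11 were higher in KO hearts, and their summed level was 310.2 to 401 CPM in KO and 157 to 241 CPM in WT hearts. Of 15 erythroid genes 6 were higher and 1 lower, with sums of 6184 to 9592 CPM in KO and 4872 to 16706 CPM in WT hearts. All 7 passed a 2-fold limit as well, against 2.59% of all genes tested. The largest rises were in Hemgn, from 1.54 to 47.9 CPM on average, and Klf1, from 1.02 to 17.7 CPM. The lower gene was the globin gene Hbb-bt, which went from 1373 to 511 CPM, so the sums do not show the rises. Of 14 cardiomyocyte genes, which sum to 40999.6 to 47098.8 CPM in KO and 40217.5 to 53263.1 CPM in WT hearts and so fit the labelled tissue, 1 was higher and 3 were lower. Endothelial genes had 2 higher and 1 lower of 8, fibroblast genes 3 higher of 8, and none of 6 skeletal muscle genes passed by edgeR, at an unadjusted p under 0.05 either. The part of these differences in the values of the ribosomal protein genes was not tested.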

How the data were processed

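Hearts of 5 KO and 6 WT embryos were profiled by stranded, single-end mRNA sequencing. The authors aligned reads with STAR to GRCm38/mm10 (submitters' processing notes; version and annotation release not given in the sources used here) and deposited raw read counts per gene for both strands together and for each strand. STAR counts only reads with a single place in the genome, which lowers genes that have processed pseudogenes. The column of the strand that held most reads was used, without its 4 lines that name no gene. Genes were named by GENCODE M21 (55141 of 55487; 346 unmatched).

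Genes with at least 10 counts over all hearts were tested with edgeR 4.0.16 in R 4.3.3 (TMM, glmQLFit, genotype as the only term, Benjamini-Hochberg over 24177 genes, threshold 0.05), checked on simulated data. Alternatives were DESeq2 1.42.0, other scalings and filters, both strands, replicate naming style and leaving out each heart. Levels are CPM, and levels between genes are per kilobase of coding sequence. Library measures were compared by exact permutation. Named members were called genes, paralogous pairs, P-stalk genes with Rpsa, ubiquitin fusions, Diamond-Blackfan genes, the 3 highest and 3 lowest per kilobase, members within 5 Mb of Pde2a, members with 3 counts or fewer in each heart and the most variable member. In each list of related genes the 2 largest changes in each direction past the threshold were named, with Eef2 and some erythroid genes named besides. Members and lists were chosen with earlier results of these data known. Comparison of paralogous proteins by identity was not run here. Single values of some genes on these lists are not reported here.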

Additional observations from a re-analysis of the deposited data

Results flagged for a closer look

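In a search of 80 groups of 5 or 6 hearts, 4 held a heart far from the others of its genotype, and chance alone gives about 1 in 20 groups. Rplp0 was at 516.2 CPM in WT replicate 6 and at 756 to 812 CPM in the other 5 WT hearts. Rpl10 was at 259 CPM in KO replicate 15 and at 242 to 247 CPM in the other KO hearts. Rpl15 was at 206 CPM in WT replicate E and at 219.7 to 228 CPM in the other WT hearts. Pseudogene counts came to 0.702% of the members' counts in KO replicate D and to 0.658% to 0.669% in the other KO hearts.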

How the results depend on the processing

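No paired analysis was possible because the replicate names of KO and WT hearts are not shared. The median log2 fold change of the members stayed positive in all alternatives with 0.02 to 0.07 on leaving out single hearts, and no member passed a 2-fold limit in any of them. Members higher numbered 1 by edgeR, 11 with DESeq2 and 8 with the naming style of the replicates as a term. Members lower numbered 3, or 1 when only ribosomal members counted on most of their coding sequence at 1 CPM or more were kept. Over all genes tested 8.93% were higher and 5.67% lower by edgeR. With DESeq2 these shares were 16.4% and 13.8% of the genes with an adjusted p. The share with the naming style as a term is not given here. With DESeq2, 1 of the other ribosomal proteins was higher, 4 RNA polymerase I genes, 4 genes of the mTOR branch and 2 factors outside the TOP list were lower, and pseudogenes had 3 higher and 0 lower. With reads of both strands 0 pseudogenes were lower. Leaving out each heart in turn gave 0 to 10 members higher, 0 to 3 lower and 4 to 24 without overlap. For the lists it gave 0 to 1 other ribosomal proteins higher, 2 to 5 TOP mRNAs higher and 0 to 1 lower, 0 to 13 assembly factors lower, 1 to 3 RNA polymerase I genes lower, 0 to 3 mTOR genes higher and 0 to 4 lower, 0 to 2 factors outside the TOP list lower, 13 to 44 mitochondrial ribosomal proteins lower, and 0 to 3 pseudogenes higher and 0 to 2 lower with a median of 0.036 to 0.133. Members higher fell to 0 without KO replicate 14, 15 or D or WT replicate 6, E or H, and lower to 1 without KO replicate 14 or 15 or WT replicate 6 or 8. The summed share differed by 0.034 to 0.101 percentage points when a heart was left out. Of the 4 members past the threshold 0 turned sign when a heart was left out, while 19 of the 81 others did, among them Rplp0 (-0.13 to 0.06), Rpsa (-0.0043 to 0.040) and Rps27a (-0.04 to 0.02), and the median of the mTOR list also changed sign. The cause of these moves was not tested. Shares over all genes on leaving out a heart are given here only for KO replicate A. The other leave-one-out counts therefore show only how the calls depend on single hearts. Depth limits Rpl24, Rpl3l and Rpl39l, which had under 300 counts over all hearts.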
